A study of Mus musculus with 10 samples.

Results

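The cells described here are cochlear cells that carry transcripts of Emilin2 and of genes found with it, and they are called tympanic border-like from these markers. They were drawn from single-cell RNA sequencing libraries of the cochlea of wild-type CBA/J mice aged 22 months, an inbred strain whose hearing declines late in life. A cell was a member if it had at least 200 detected genes, at least 1000 unique molecular identifiers (UMIs, each counting 1 captured transcript) and under 25% mitochondrial UMIs. It also needed a UMI in at least 3 of the 8 genes Emilin2, Emcn, Epha3, Anks1b, Tmem100, Notum, Rarres1 and Tnfaip6, and no UMI of Cdh5. Of the 6 hair cell genes Myo6, Myo7a, Pou4f3, Tmc1, Kncn and Gfi1, fewer than 3 could have a UMI. The members were thus chosen by the measured counts of these genes, and the rule found 946 members among 7272 kept cochlear cells, and 17696 cells were kept from cochlea and vestibule together.

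Each library pooled cells of 7 to 8 mice, male and female, so no value belongs to 1 animal. Cochleae and vestibular organs were dissected whole and dissociated with collagenase IV. The labels call the cochlear tissue sensory epithelium, but the libraries also held fibrocytes, immune cells and glia. No treatment, transgene or sort was applied, and all libraries used here share age, strain and genotype. Young libraries were not analysed here. Nothing compared here is therefore a comparison of ages.

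Tympanic border cells are flat mesenchymal cells that line the underside of the basilar membrane, facing the perilymph of the scala tympani beneath the organ of Corti. In newborn mice they divide, respond to Wnt signalling, and become fewer and thinner as the basilar membrane matures. EMILIN2 is an extracellular glycoprotein of the elastin microfibril interface family found in the basilar membrane, NOTUM is a secreted enzyme that inactivates Wnt ligands, and otoraplin (Otor) is a small secreted protein of the inner ear. Endomucin (Emcn) and TMEM100 are best known from vascular endothelium, which is why endothelial genes were examined in the members.

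Of 5 cochlear libraries, 4 entered the analysis. All 1313 barcodes of replicate 2 recurred in replicate 1, and the counts of the 2 libraries differed by less than sampling noise (chi-square per gene 0.125, against 32.6 between replicates 1 and 4). They were counted as 1 sample, represented by replicate 1. Vestibular replicate 2 likewise shared 1633 of its 1641 barcodes with vestibular replicate 1 and was left out. No member barcode was shared between the 4 libraries used. Total UMIs were 2738036 in replicate 1, 26974948 in replicate 3, 5349308 in replicate 4 and 5452292 in replicate 5. The members held 145631, 2713995, 994209 and 907798 of them, so replicate 3 gave the steadiest values and replicate 1 the least certain. The median member had 1599, 1930, 4565 and 2360 UMIs in replicates 1, 3, 4 and 5.

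The members made up 7.53% of kept cells in replicate 1 (43 of 571 cells, exact 95% binomial interval 5.50 to 10.0), 11.7% in replicate 3 (594 of 5070), 13.1% in replicate 4 (91 of 695) and 23.3% in replicate 5 (218 of 936, interval 20.6 to 26.1). The mean was 13.9% ± 6.69 (SD, n = 4). The highest and lowest libraries differed by more than their counting error. The intervals cover counting error only.

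**Figure D1:**
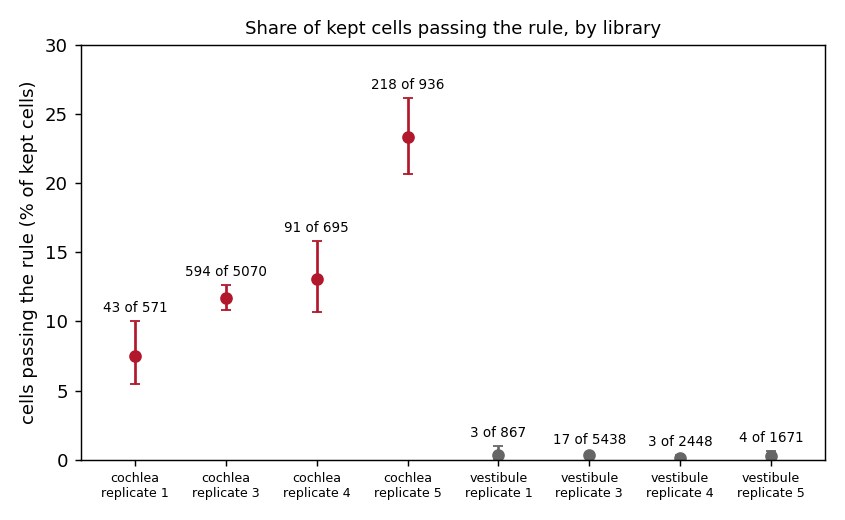
Share of kept cells that pass the rule (vertical axis, percent) in each of the 4 cochlear and 4 vestibular libraries, with bars for the exact 95% binomial interval. Cochlear shares run from 7.53% to 23.3% and the highest vestibular share is 0.346%.

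The vestibule, where the rule was not made, held 27 passing cells of 10424 (0.259%), with 3, 17, 3 and 4 cells in replicates 1, 3, 4 and 5. The vestibular share was below the lowest cochlear share in every library. Of these 27 cells, 25 had a UMI of Emilin2, 21 of Emcn, 22 of Coch and all 27 of Ptn. An Otor UMI was seen in 4 of them (14.8%), against 29.7% of all kept vestibular cells, and an Epha3 UMI in 2, while all 27 had Dcn, which encodes the collagen-binding proteoglycan decorin. With fewer than 5 such cells in 3 of the 4 libraries the 2 organs were not tested against each other.

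The markers of the label were present in the members. These values chose the cells, or in the case of Otor helped to name them with results in view, and are given as a description. Levels are given as CPM (counts per 1000000), a gene's UMIs in the summed cells of a library per 1000000 UMIs in those cells. Emilin2 (chr17:71252172-71311978, mm10) stood at 4656, 3559, 5320 and 3901 CPM in the members of replicates 1, 3, 4 and 5, a mean of 4359 ± 788 (SD, n = 4), and a UMI was found in 98.1% to 100% of members. Emcn averaged 2629 ± 297 CPM, Epha3, a receptor of the ephrin-A family, 183 ± 27.1 CPM, and Notum 187 ± 51.5 CPM. All 4 were higher in the members of every library than in the rest of its kept cells.

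Emilin2 was not restricted to members. It averaged 523 CPM in otospiralin-positive fibrocytes, the fibrocytes of the lateral wall and limbus, and 2143 CPM in a fibroblast class marked by Ccl11 and Scn7a. The remaining genes of the rule averaged 364 CPM for Anks1b, 205 for Tmem100, 167 for Rarres1 and 356 for Tnfaip6 in the members, against 22.4, 15.2, 6.80 and 33.7 CPM in fibrocytes. Tmem100 and Tnfaip6 overlapped with the fibroblast class, whose library of replicate 1 holds only 5 cells, in which 1 UMI already equals 147 CPM.

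Otor, which the rule does not use, was high in the members of every library. It stood at 2046, 3540, 3312 and 2744 CPM in the members of replicates 1, 3, 4 and 5, and at 72.3, 846, 401 and 69.9 CPM in fibrocytes of the same libraries. Every member value was above every fibrocyte and fibroblast value. A UMI was found in 710 of 946 members (75.1%) and in 5.76% of macrophages, a class not known to make otoraplin and of like depth (median 2440 UMIs, against 2161 in members). Members held 15.2% of all UMIs in kept cochlear cells and 82.7% of the Otor UMIs.

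The region before the Otor start site is shown because Otor led the gene pattern of these cells. It is the 250 bases upstream of the RefSeq start of Otor, chr2:143078143-143078392, plus strand, build GRCm38.p6. Capitals mark TATAAA, the core promoter letters, whose first base lies 35 bases before the start.
Otor: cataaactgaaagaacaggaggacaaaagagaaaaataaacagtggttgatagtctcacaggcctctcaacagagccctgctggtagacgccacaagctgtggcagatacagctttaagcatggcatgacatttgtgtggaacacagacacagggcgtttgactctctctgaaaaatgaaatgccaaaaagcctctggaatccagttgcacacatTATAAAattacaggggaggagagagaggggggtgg
TATAAA, searched on both strands, occurs in 12.4% of 32851 mouse promoter windows of this length. The match describes the letters and was not tested as a site.

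The rule has a threshold, and the cells on each side of it differed in level. Of the members, 334 had exactly 3 of the 8 genes, 219 had 4, and 393 had 5 or more. Just outside lay 459 cells with 2 of the genes that met every other limit. Otor averaged 403 ± 135 CPM in those 459 cells, 1102 ± 243 CPM in members with 3 genes, 2922 ± 653 CPM with 4 and 3365 ± 643 CPM with 5 or more (SD over 4 libraries). Dcn ran the other way, from 3249 ± 1312 CPM with 2 genes through 2313 ± 1106 CPM with 3 to 47.5 ± 43.5 CPM with 5 or more. Members at the threshold therefore carried more of the fibroblast gene Dcn and less Otor than the rest. Deeper cells reach the threshold more easily, and when each cell was thinned to 1000 UMIs 669 cells passed.

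**Figure D2:**
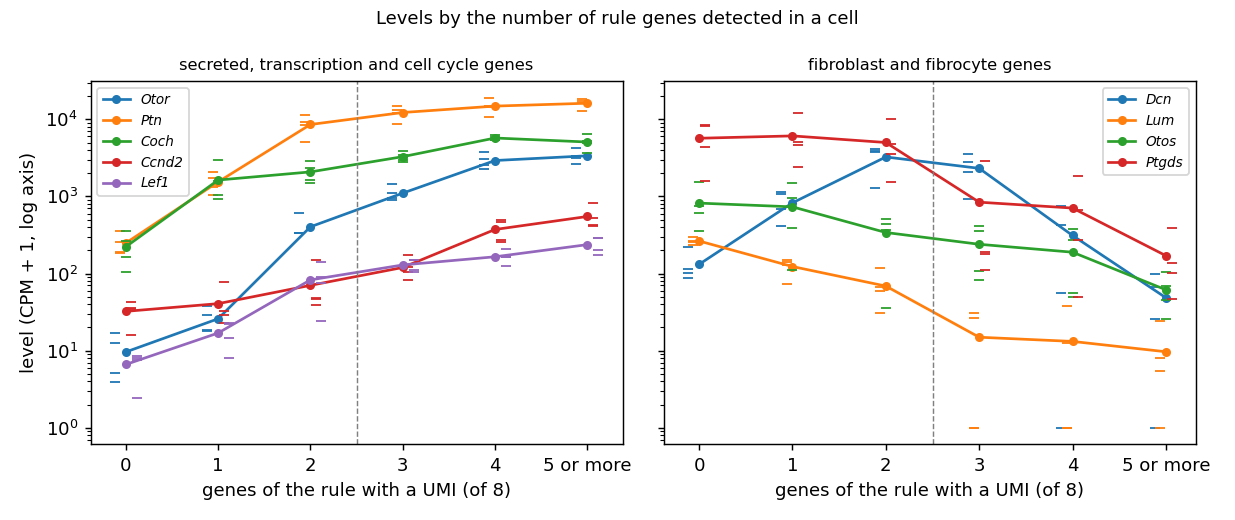
Mean level (log axis, CPM + 1) of Otor, Ptn, Coch, Ccnd2 and Lef1 (left) and of Dcn, Lum, Otos and Ptgds (right) in cochlear cells with 0, 1, 2, 3, 4 and 5 or more of the 8 rule genes; small dashes are single libraries and the dashed line is the threshold. Otor climbs from 8.61 CPM at 0 genes to 3365 CPM at 5 or more, while Dcn peaks at 2 genes and falls to 47.5 CPM.

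Grouping the kept cells by expression without the rule gave 29 clusters. One of them, led by Otor, Rarres1, Notum, Plpp4 and Epha3, held 869 cells, and 727 of these were members, which is 83.7% of the cluster and 76.8% of all members. A cluster led by Scn7a, Gpr83 and Ccl11 held 139 members (14.7% of members) among 690 cells, and one led by Fst, Phex and Dmp1 held 37. The members are therefore mostly, but not wholly, the cells of 1 cluster. Clusters were made from the 2000 most variable genes and the rule genes were not held out, so the overlap is a description.

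Endothelial identity was examined because Emcn and Tmem100 are vascular genes. Esam and Tie1 were at 0 in the members (0 of 946 cells, exact upper limit 0.389%, which limits cells with a UMI and not cells expressing the gene), Cldn5 had a UMI in 1 member, Pecam1 in 7 (0.740%) and Egfl7 in 8. Flt1, a receptor for vascular endothelial growth factors, was the exception, with a UMI in 239 members (25.3%), and Kdr had one in 60. Flt1 was not particular to the members, with a UMI in 35.5% of the Ccl11 and Scn7a fibroblast class and in 5.87% of fibrocytes. A further 52 cells were left out only because they held a UMI of Cdh5, the cadherin of endothelial junctions. Of these, 35 had Otor (67.3%), 34 had Flt1, and none had Pecam1, Esam or Tie1. Cdh5 itself had a UMI in 19.0% of the fibroblast class and 15.8% of fibrocytes. Requiring no UMI in Pecam1, Cldn5, Flt1 and Egfl7 kept 698 members, and the other 248 could then be counted in the comparison classes described below. Under that rule the log2 difference of Otor from fibrocytes, given as a description, went from 3.74 to 0.98, while Ccnd2 went from 2.58 to 0.60 and Bhlhe22 from 2.46 to 0.54, and neither of the 2 was called any longer (edgeR adjusted p = 0.0961 and 0.184). With the 248 cells left out of every sum instead, the differences were 3.56, 2.24 and 2.16.

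Mesothelial genes were close to absent, since 7 of 8 on the list (Msln, Upk3b, Upk1b, Lrrn4, Wt1, Muc16 and Bnc1) were at 0 in the members and Cldn15 had 1 UMI. The list was also scarce elsewhere, at 2.75 CPM in the rest of the kept cells against 0.275 CPM, so this absence does not set the members apart. Pou3f4 and Tbx18, transcription factors of the otic mesenchyme, averaged 378 ± 74.8 and 189 ± 20.3 CPM, against 469 and 234 CPM in fibrocytes. Neither differed from fibrocytes in edgeR's quasi-likelihood test (adjusted p = 0.252 and 0.267).

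The members were compared with 2 stromal classes, on counts summed per library and with the library as a block. Fibrocytes gave 48, 419, 59 and 87 cells in replicates 1, 3, 4 and 5. Fibroblasts gave 5, 81 and 31 cells in replicates 1, 3 and 5, and the 4 fibroblasts of replicate 4 were too few to sum. Cells that pass the rule are absent from both classes by construction, and the 44 genes used to define any class that passed the filter were left out of the test. Over the 4 libraries, only 52 of 121 fibroblasts and 485 of 613 fibrocytes held fewer than 2 rule genes. The other comparison cells lay near or past the threshold of the rule, most of all among fibroblasts. A log2 difference below is the members minus the named class. Many genes named below were picked for large differences, and those from lists also for no overlap with the class mean. Lack of overlap is therefore a description, and its share among all genes is not given. Each library is a pool of mice, so p-values measure the spread between pools.

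Against fibrocytes, 1957 of 7494 genes tested passed an adjusted p of 0.05 (26.1%), 798 higher in the members (10.6%) and 1159 lower (15.5%). Against fibroblasts 225 passed (3.0%), 111 higher (1.48%) and 114 lower (1.52%). This count and its split changed when single libraries were left out, as given under the processing heading at the end. Against the mean of the 2 classes 697 passed (9.3%), 412 higher (5.5%) and 285 lower (3.8%). Without the library block the counts were 1361, 102 and 311. At 2000 UMIs or more per cell the fibroblasts were 22 and 12 cells in replicates 3 and 5, and 41 genes passed against them, 8 higher and 33 lower. Of the genes named below, Fn1, Epha5, Gper1, Bhlhe22, Corin, Spon2, Fzd1, Bambi, Id4, Foxc2, Foxp2, Cdkn1a, Fos, Cemip and Pcolce2 were then not called against fibroblasts (edgeR adjusted p between 0.0787 for Id4 and 0.999 for Cemip, whose difference turned to 0.0122). The median log2 difference of all genes was -0.02, 0.13 and 0.05 in the same order. The fibroblast sums held far fewer cells than the fibrocyte sums, and the counts were not tested against each other.

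Ccnd2, Fn1, Cntn1 and Epha5 were higher in the members than in both classes. Ccnd2, which encodes cyclin D2, a driver of the step from growth into DNA synthesis, stood at 577, 338, 511 and 341 CPM in the members of replicates 1, 3, 4 and 5. Fibrocytes of these libraries had 40.6, 60.1, 90.2 and 53.9 CPM and fibroblasts of replicates 1, 3 and 5 had 0 CPM, 25 CPM and 32.3 CPM. The members did not overlap with either class, and Ccnd2 was higher than in fibrocytes by 2.58 ± 0.26 (log2 ± SE, edgeR adjusted p = 5.7e-14) and than in fibroblasts by 3.93 ± 0.51 (edgeR adjusted p = 1.5e-08).

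Fn1, encoding the matrix glycoprotein fibronectin, stood at 398, 326, 476 and 301 CPM in the members, and its highest value in any fibrocyte or fibroblast library was 104 CPM. The difference was 3.02 ± 0.31 from fibrocytes (edgeR adjusted p = 3.67e-14) and 2.66 ± 0.48 from fibroblasts (edgeR adjusted p = 3.93e-05). Cntn1, a cell adhesion molecule best known from neurons and glia, stood at 611, 439, 307 and 477 CPM, against means of 80.5 CPM in fibrocytes and 137 CPM in fibroblasts. All 4 member libraries lay above all others. Epha5, like Epha3 a receptor for ephrin-A ligands, stood at 247, 357, 406 and 379 CPM and did not overlap with either class. It was higher by 2.58 ± 0.28 than in fibrocytes and by 2.44 ± 0.43 than in fibroblasts (edgeR adjusted p = 1.04e-12 and 2.9e-05). Of 6 tested Eph and ephrin genes, Ephb3 was the other one higher than in fibrocytes (all genes 10.6%), and Epha7, at 83.5 CPM in the members, 121 CPM in fibrocytes and 591 CPM in fibroblasts, was lower than in both (all genes 15.5% and 1.52%).

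A group of less abundant genes was also higher in the members than in both classes. Gper1, a membrane receptor for oestrogen, averaged 101 ± 31.6 CPM, against 15.1 CPM in fibrocytes and 5.00 CPM in fibroblasts. Bhlhe22, a transcription factor of the helix-loop-helix family, averaged 73.4 ± 27.0 CPM against 9.90 and 3.34 CPM. Corin, a membrane serine protease that activates natriuretic peptides, averaged 60.9 ± 13.4 CPM against 12.7 and 3.34 CPM. Spon2, a secreted matrix protein, averaged 86.4 ± 44.1 CPM against 6.94 and 8.34 CPM. For each of these 4 genes all member libraries lay above all fibrocyte and fibroblast libraries, and both differences passed the test. The 4 genes were picked for large differences from the class mean, so this separation is a description. The calls against fibroblasts rested on single libraries for 3 of them. Without replicate 5 the edgeR adjusted p was 0.403 for Corin and 0.382 for Spon2, without replicate 1 it was 0.0850 and 0.184, and without replicate 3 it was 0.0693 for Corin and 0.0770 for Bhlhe22, while Spon2 had 0.0771 without replicate 4. Members held 73.1% of the Gper1 UMIs of kept cochlear cells, 79.9% of those of Bhlhe22, 80.7% of those of Corin and 74.3% of those of Spon2.

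**Figure D3:**
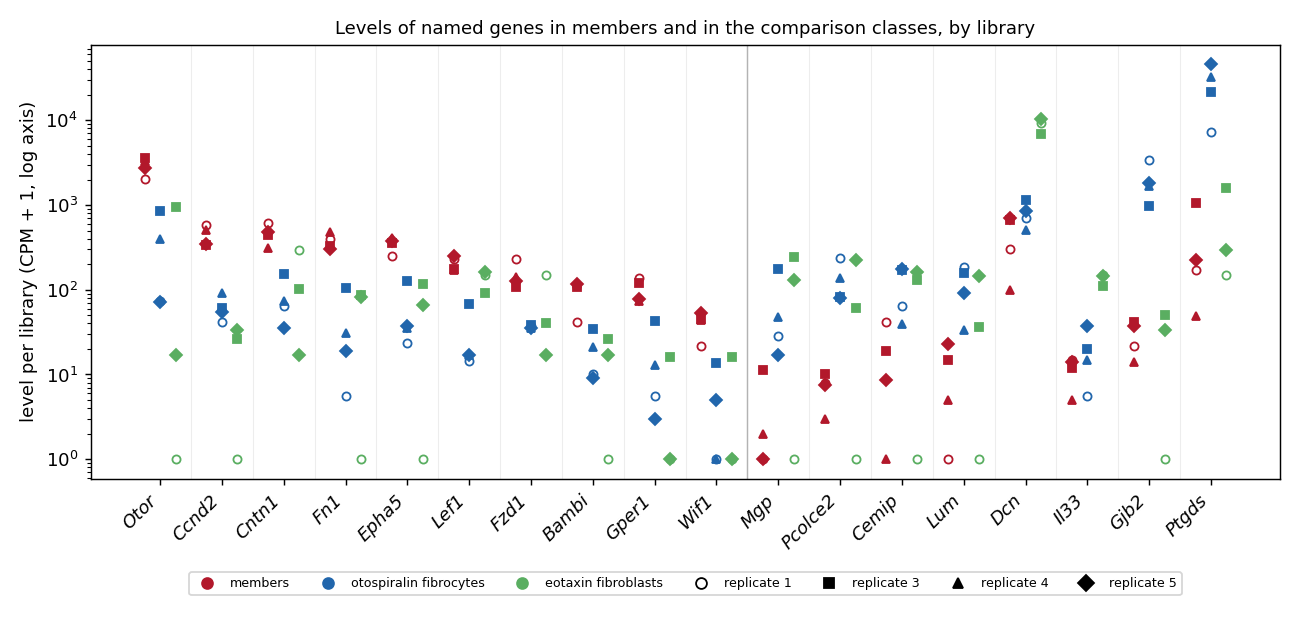
Level (log axis, CPM + 1) of 18 genes in the members, fibrocytes and fibroblasts, 1 point per library. The 10 genes on the left, from Otor to Wif1, are higher in members than in fibrocytes, and the genes on the right, from Mgp to Ptgds, are lower than in 1 or both classes, with Dcn at 8812 CPM in fibroblasts and 444 CPM in members.

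Of 30 tested genes of a 51-gene list of the Wnt pathway, 13 were higher and 7 lower than in fibrocytes (43.3% and 23.3%, against 10.6% and 15.5% of all genes). Against fibroblasts 1 was higher and 3 were lower, where 1.48% and 1.52% of all genes were. The median log2 difference of the list was 0.47 from fibrocytes and -0.14 from fibroblasts. Axin2, Nkd1, Nkd2 and Apcdd1 are negative feedback targets of the pathway, Lef1 and Tcf7 are its nuclear partners, and Fzd1, Fzd2, Fzd7 and Fzd10 are receptors; all were among the 13.

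Lef1 stood at 227, 177, 170 and 249 CPM in the members of replicates 1, 3, 4 and 5 and at 13.5, 67.7, 16.0 and 16.0 CPM in fibrocytes. Its difference was 2.42 ± 0.27 from fibrocytes (edgeR adjusted p = 2.73e-12) and 1.23 ± 0.40 from fibroblasts, which missed the threshold (edgeR adjusted p = 0.0702), although no library overlapped. Fzd1 stood at 227, 107, 140 and 127 CPM in the members and between 33.9 and 37.3 CPM in fibrocytes. It was the only gene of the list called higher than in both classes (1.73 ± 0.24, edgeR adjusted p = 4.24e-09, and 1.88 ± 0.46, edgeR adjusted p = 0.00661), and its fibroblast values of 147, 40.0 and 16.1 CPM overlapped with the members through the 5-cell library. Without replicate 5 Fzd1 was not called against fibroblasts (1.60, edgeR adjusted p = 0.265).

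Wif1, a secreted inhibitor that binds Wnt ligands, had 20.6, 43.8, 43.3 and 51.8 CPM in the members and at most 15 CPM in any library of the other classes. It was higher than in fibrocytes by 2.45 ± 0.38 (edgeR adjusted p = 9.56e-08) and than in fibroblasts by 2.26 ± 0.76 (edgeR adjusted p = 0.0933). Axin2, the usual readout of the pathway, averaged 191 ± 47.8 CPM in the members, 67.3 ± 25.2 in fibrocytes and 235 ± 55.1 in fibroblasts. It was higher than in fibrocytes by 1.28 ± 0.24 (edgeR adjusted p = 1.32e-05), while the difference from fibroblasts was 0.02 ± 0.34 (edgeR adjusted p = 0.993). Nkd1, at 191 CPM in members and 170 CPM in fibroblasts, and Nkd2, at 91.0 and 146 CPM, likewise passed against fibrocytes only.

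Rspo3, a ligand that strengthens Wnt signalling, was nearly missing from the members, with 1 UMI among all 946 cells, and fibrocytes had 45.2, 36.2, 26.0 and 39.9 CPM. Its relative Rspo1 went the other way, at 66.2 ± 18.5 CPM in members against 11.2 ± 6.64 in fibrocytes (2.09 ± 0.31, edgeR adjusted p = 2.79e-08). The inhibitors Dkk3 and Frzb, the ligands Wnt5a and Wnt6, the receptor Fzd9 and Sfrp4 were lower than in fibrocytes. Dkk3 stood at 82.4, 101, 126 and 106 CPM in the members and at 745, 265, 639 and 423 CPM in fibrocytes, with no overlap (-2.29 ± 0.27, edgeR adjusted p = 1.95e-11).

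The 250 bases before the RefSeq start of Fzd1, the Wnt receptor gene called in both comparisons, are shown with the letters of the Lef1 and Tcf7 binding motif. The window is chr5:4758217-4758466, minus strand, build GRCm38.p6, and capitals mark TCAAAG, the reverse complement of CTTTGA, whose first base lies 242 bases before the start.
Fzd1: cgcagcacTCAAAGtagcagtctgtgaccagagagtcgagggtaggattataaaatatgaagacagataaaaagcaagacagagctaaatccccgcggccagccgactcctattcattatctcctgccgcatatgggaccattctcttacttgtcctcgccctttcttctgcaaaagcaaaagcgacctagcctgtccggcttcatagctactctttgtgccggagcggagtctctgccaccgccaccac
CTTTGA, on either strand, occurs in 13.8% of the 32851 windows, so a single match is common.

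BMP and TGF-beta signalling is a pathway whose intracellular mediators induce Id genes and inhibitory SMADs. Of 16 tested genes, 8 were higher and 2 lower than in fibrocytes (all genes 10.6% and 15.5%), and 6 were higher and 1 lower than in fibroblasts (all genes 1.48% and 1.52%). The median log2 difference of the list was 0.80 from fibrocytes and -0.15 from fibroblasts. Bambi, a pseudoreceptor that dampens the pathway, stood at 41.2, 108, 115 and 117 CPM in the members and at most 33.8 CPM in any fibrocyte or fibroblast library. It was higher by 2.12 ± 0.28 and 2.48 ± 0.55 (edgeR adjusted p = 7.08e-10 and 0.00181). With Pecam1, Cldn5, Flt1 and Egfl7 barred, the difference of Bambi from fibrocytes was 0.83 (edgeR adjusted p = 0.00443). It was 2.02 with those cells left out of all sums. Id4 (50.8 ± 23.2 CPM) and Smad7 (143 ± 52.1 CPM), an inhibitory SMAD, also passed against both. Id4 stood at 31.4 CPM without mixed droplets, the members that also hold genes of a class outside the stroma. Against fibroblasts, Bambi and Id4 were not called without replicate 3 (edgeR adjusted p = 0.101 and 0.140) or without replicate 5 (0.0953 and 0.0734). Smad6, the other inhibitory SMAD, had 39.5 ± 13.0 CPM in the members, 20.1 CPM in fibrocytes and 0 in every fibroblast library. The fibroblast sums of replicates 1, 3 and 5 held only 6478, 190790 and 58333 UMIs of genes that passed the filter. A level like that of fibrocytes could therefore read as 0 in replicates 1 and 5. Chrdl1 and Fst, extracellular antagonists of BMPs, were lower than in fibrocytes, Fst at 9.90 against 30.4 CPM.

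Of the fibrillar collagens and small leucine-rich proteoglycans, 7 of 15 tested were lower and 1 higher than in fibrocytes (all genes 15.5% and 10.6%). Against fibroblasts 6 of 15 were lower and none higher (all genes 1.52% and 1.48%). The list median was -1.29 and -1.86. Dcn stood at 302, 668, 98.6 and 708 CPM in the members and at 9267, 6850 and 10319 CPM in the fibroblasts of replicates 1, 3 and 5. All member values were lower (-3.72 ± 0.41, edgeR adjusted p = 1.77e-11), and against fibrocytes the difference was smaller and the libraries overlapped (-1.29 ± 0.37, edgeR adjusted p = 0.00392). That smaller difference was not called without replicate 4 (-0.88, edgeR adjusted p = 0.120) or without mixed droplets (-0.61, edgeR adjusted p = 0.251), where the mean level of Dcn in the members was 673 CPM and not 444. Lum, encoding lumican, averaged 116 CPM in fibrocytes and 10.0 CPM in members (-3.28 ± 0.30, edgeR adjusted p = 3.48e-16). Col3a1 and Omd were lower than in both classes, and Bgn, encoding biglycan, was higher than in fibrocytes at 137 ± 43.5 CPM, which was 1.63 ± 0.28 above fibrocytes (edgeR adjusted p = 1.09e-06).

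Of 13 tested elastic fibre genes, 7 were higher and 1 lower than in fibrocytes (all genes 10.6% and 15.5%), while none was higher and 3 were lower than in fibroblasts (all genes 1.48% and 1.52%). The list medians were 0.92 and -0.42. Mfap2, a microfibril glycoprotein, stood at 89.3, 77.7, 94.5 and 69.4 CPM in the members and at 9.03, 26.2, 20 and 14 CPM in fibrocytes, with no overlap (1.88 ± 0.29, edgeR adjusted p = 7.68e-08). Efemp1, which encodes fibulin-3, averaged 854 ± 155 CPM, above fibrocytes at 181 CPM and below every fibroblast library, where the mean was 1761 CPM (edgeR adjusted p = 0.666 against fibroblasts). Ltbp1, Ltbp3 and Ltbp4, which hold latent TGF-beta in the matrix, and the crosslinking enzymes Lox and Loxl1 were the others higher than in fibrocytes. Fbln5, encoding fibulin-5, had 7 UMIs in all members and was lower than in both classes.

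Among basement and basilar membrane genes, 4 of 13 tested were higher and 2 lower than in fibrocytes, and 1 was higher and 1 lower than in fibroblasts (all genes 1.48% and 1.52%). The share lower than in fibrocytes, 15.4%, was that of all genes (15.5%), and the share higher was 30.8% against 10.6%. Hspg2, the heparan sulphate proteoglycan perlecan, averaged 35.4 ± 7.56 CPM against 11.8 ± 7.44 in fibrocytes (1.58 ± 0.35, edgeR adjusted p = 0.000146). Lama4, a laminin chain of vascular and mesenchymal basement membranes, averaged 36.0 ± 6.59 CPM against 11.1 ± 8.96 (1.68 ± 0.35, edgeR adjusted p = 5.58e-05). Lama2 was lower than in fibrocytes, but was not called without replicate 1, 3 or 5 (-0.65, -0.26 and -0.72, edgeR adjusted p = 0.0653, 0.591 and 0.0922). Nid1 averaged 20.5 CPM in members, 20.6 CPM in fibrocytes and 183 CPM in fibroblasts. Tnc, encoding tenascin C of the basilar membrane, had 15 UMIs in the members.

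Of 16 tested gap junction and ion transport genes of the potassium-recycling fibrocytes, 11 were lower and 3 higher than in fibrocytes, where 15.5% and 10.6% of all genes were, and 1 was lower and 1 higher than in fibroblasts, where 1.52% and 1.48% of all genes were. Gjb2, encoding connexin 26, stood at 20.6, 40.9, 13.1 and 36.4 CPM in the members and at 3355, 963, 1673 and 1838 CPM in fibrocytes. The groups were far apart (-6.08 ± 0.41, edgeR adjusted p = 1.93e-23), and members and fibroblasts, at 27.7 and 27.4 CPM, differed by -0.34 ± 0.64 (edgeR adjusted p = 0.878). Gjb6, encoding connexin 30, averaged 16.4 against 732 CPM in fibrocytes, and Atp1b1, a subunit of the sodium-potassium ATPase, 176 against 1878 CPM. Exceptions higher than in fibrocytes were Gjc1 (connexin 45), Atp1b2 and Cacna1d, the last at 271 ± 92.3 against 54.6 ± 27.7 CPM. Slc4a10, a sodium bicarbonate transporter, had 1 UMI in all members.

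Of 12 tested genes for secreted proteins of the cochlear connective tissue, 1 was higher and 4 lower than in fibrocytes (8.33% and 33.3%, against 10.6% and 15.5% of all genes), and 2 were higher and 1 lower than in fibroblasts (all genes 1.48% and 1.52%), with Otor, chosen with results known, among those higher in both. Ptgds, encoding prostaglandin D2 synthase, stood at 172, 1048, 48.3 and 221 CPM in the members and at 7284, 21581, 32598 and 45676 CPM in fibrocytes, and no library overlapped (-7.07 ± 0.60, edgeR adjusted p = 3.82e-18). Mgp, matrix Gla protein, an inhibitor of calcification, had 0, 10.3, 1.01 and 0 CPM in the members and means of 65.9 and 125 CPM in fibrocytes and fibroblasts (-4.34 ± 0.38 and -5.01 ± 0.46, edgeR adjusted p = 1.72e-17 and 6.21e-15). Coch, encoding cochlin, was used to define fibrocytes and is a description here. It stood at 4662, 4559, 3748 and 5803 CPM in the members, above every fibrocyte value, the highest of which was 3483 CPM, and above the fibroblast mean of 429 CPM. Spp1, osteopontin, averaged 3079 ± 1105 CPM, which differed from fibroblasts (3.40 ± 0.51, edgeR adjusted p = 7.44e-07) and not detectably from fibrocytes (0.39 ± 0.39, edgeR adjusted p = 0.509).

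Ptn, encoding the heparin-binding growth factor pleiotrophin, took more of the members' UMIs than any other protein-coding gene outside the ribosomal, mitochondrial and haemoglobin sets. Non-coding genes were not ranked. It stood at 11227, 16705, 16234 and 16276 CPM in replicates 1, 3, 4 and 5 and had a UMI in 98.7% of members and 26.7% of macrophages. Fibrocytes averaged 2690 CPM and fibroblasts 18249 CPM, so Ptn was higher than in fibrocytes (2.67, edgeR adjusted p = 2.03e-07) and overlapped with fibroblasts (0.20, edgeR adjusted p = 0.905). Apoe, which carries lipids, averaged 7712 ± 2223 CPM and Itih5, a hyaluronan-associated secreted protein, 2602 ± 640 CPM, with 4983 CPM of Itih5 in fibroblasts. Of the hyaluronan list 3 genes were tested, and Itih2 and Itih5 were higher than in fibrocytes, as were 10.6% of all genes. Cemip, which degrades hyaluronan, was lower than in both classes at 16.7 CPM (26.5 CPM without mixed droplets) against 112 and 97.2 CPM, as were 15.5% and 1.52% of all genes. Pcolce2, an enhancer of procollagen processing, was lower than in both at 6.17 against 133 and 95.4 CPM.

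Transcription factors of mesenchyme gave 7 of 24 tested higher and 4 lower than in fibrocytes, and 1 higher and 2 lower than in fibroblasts (all genes 1.48% and 1.52%). The share lower than in fibrocytes, 16.7%, was close to the 15.5% of all genes, and the share higher was 29.2% against 10.6%. Ebf1, a factor of mesenchymal and B lineage cells, was the most abundant, at 1621, 1678, 1364 and 2050 CPM in the members and 750, 1055, 547 and 844 CPM in fibrocytes, without overlap (0.94 ± 0.33, edgeR adjusted p = 0.0222). Ebf1 was not called without replicate 4 (edgeR adjusted p = 0.0865) or replicate 5 (0.191). Foxc2, a forkhead factor of vascular and paraxial mesenchyme, averaged 34.7 ± 10.9 CPM and was higher than in both (edgeR adjusted p = 0.00055 and 0.043), the second call being lost without replicate 1, 3 or 5 (0.127, 0.277 and 0.382). Without mixed droplets Foxc2 averaged 22.5 ± 22.3 CPM, with 0 in the lowest library. Foxp2 was lower than in both, at 31.4 ± 11.6 CPM against 68.3 and 155 CPM, although not called against fibroblasts without replicate 5 (edgeR adjusted p = 0.0981). Sox9, a factor of chondrogenic and otic cells, was lower than in fibrocytes, at 173 against 662 CPM.

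Genes of dividing cells were scarce beside the high Ccnd2. Of a 28-gene cell cycle list only 6 were abundant enough to test, and Ccnd2 was the only one called in either comparison, where 10.6% and 1.48% of all genes were higher. Mki67 had 11 UMIs and Top2a 6 in all 946 members. Pcna, the sliding clamp of DNA replication, averaged 28.9 ± 3.92 CPM in members and 32.7 ± 5.08 in fibrocytes (edgeR adjusted p = 0.361). Among inhibitors of cyclin-dependent kinases, Cdkn1a, encoding p21, stood at 103, 75.5, 82.5 and 65.0 CPM in the members and at 27.1, 44.3, 56.1 and 29.9 CPM in fibrocytes, with no overlap (0.75 ± 0.25, edgeR adjusted p = 0.0174). Cdkn1c, encoding p57, averaged 160 ± 64.6 against 56.3 CPM in fibrocytes, Cdkn1b was lower than in fibrocytes, and Cdkn2a had 1 UMI. Of 12 tested genes of this list, 4 were higher and 1 lower than in fibrocytes (33.3% and 8.33%, against 10.6% and 15.5% of all genes), and Cdkn1a alone was higher than in fibroblasts, where 1.48% of all genes were (2.84 ± 0.67, edgeR adjusted p = 0.00399). Cdkn1a averaged 58.3 ± 17.4 CPM in the 824 members that did not share genes with a class outside the stroma, as described below. Among those members the difference of Cdkn1a from fibrocytes was 0.46 (edgeR adjusted p = 0.216), and over all members it was not called without replicate 1 or 5 (0.0572 and 0.0626), nor against fibroblasts without replicate 3 or 5 (0.0594 and 0.128).

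**Figure D4:**
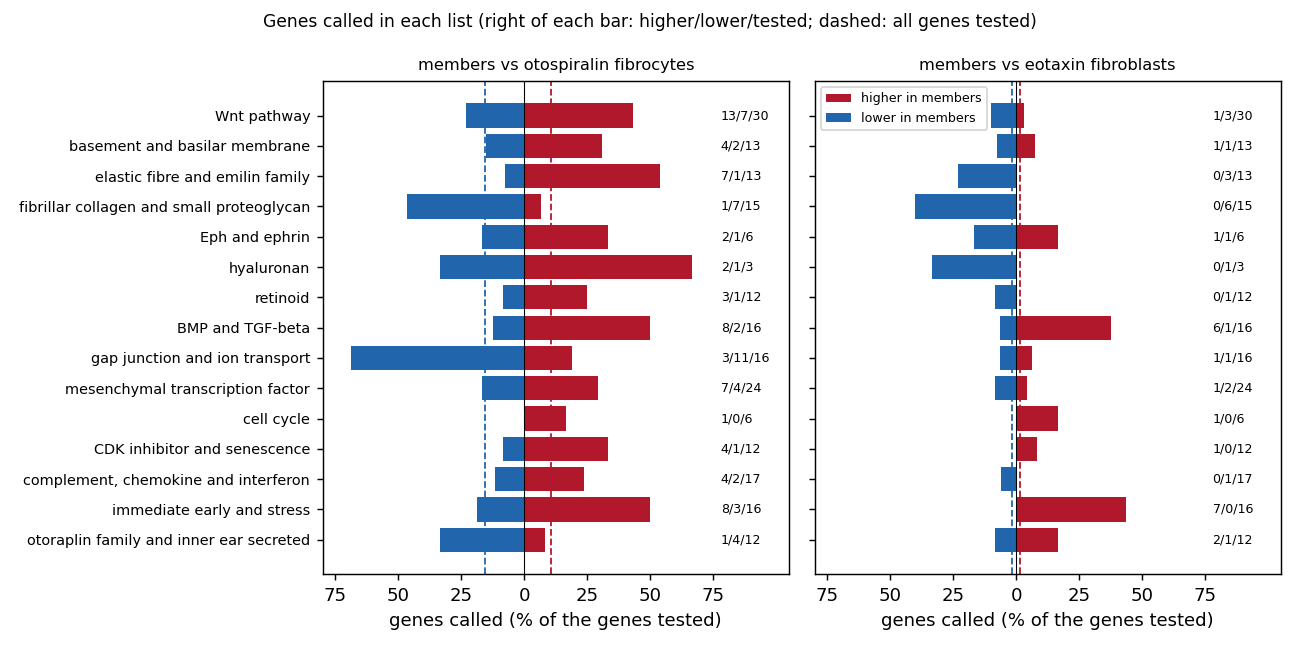
Percent of tested genes of each of 15 lists called higher or lower in the members than in fibrocytes (left) and fibroblasts (right), by edgeR at an adjusted p of 0.05, with dashed lines for the share of all 7494 genes. Against fibrocytes the gap junction and ion transport list reaches 68.8% lower and the elastic fibre list 53.8% higher, and against fibroblasts the immediate early list reaches 43.8% higher.

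Immediate early and stress genes respond within minutes to tissue handling. Of 16 tested, 8 were higher and 3 lower than in fibrocytes (all genes 10.6% and 15.5%), and 7 were higher and none lower than in fibroblasts (all genes 1.48% and 1.52%). Fos stood at 27.5, 128, 811 and 165 CPM in the members of replicates 1, 3, 4 and 5, and Jund at 378, 494, 1733 and 485 CPM, so that replicate 4 was the highest for both. Fibrocytes of replicate 4 were also the highest of their class, with Fos at 258 CPM. The groups overlapped for Fos against fibrocytes (1.13 ± 0.29, edgeR adjusted p = 0.00146), and fibroblasts had no usable sum in replicate 4. Without replicate 4 the difference of Fos from fibrocytes was 0.98 (edgeR adjusted p = 0.0348), but without replicate 5 it was 0.65 and not called (edgeR adjusted p = 0.290), nor was it called by DESeq2 (0.97, adjusted p = 0.313). Without the library block Fos was 1.28 above fibrocytes and not called (edgeR adjusted p = 0.160). With members holding a UMI of Pecam1, Cldn5, Flt1 or Egfl7 left out of all sums it was 0.76 above fibrocytes and not called (edgeR adjusted p = 0.0942). Under the rule that bars these genes the difference was -0.0775 (edgeR adjusted p = 0.909). Against fibroblasts Fos was not called without replicate 5 (edgeR adjusted p = 0.0571). The part that dissociation played was not tested.

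Complement, chemokine and interferon genes gave 4 of 17 tested higher and 2 lower than in fibrocytes, and none higher and 1 lower than in fibroblasts (all genes 1.48% and 1.52%). Against fibrocytes the counts are 23.5% and 11.8%, beside 10.6% and 15.5% of all genes. Cxcl13, a chemokine that attracts B cells, stood at 61.8, 210, 142 and 138 CPM in the members and at 4.52, 63.6, 24.0 and 5.99 CPM in fibrocytes (2.32 ± 0.28, edgeR adjusted p = 4.92e-11), overlapping only between the lowest member and the highest fibrocyte library. Il33, an alarmin of fibroblasts, was lower than in both, at 10.5 ± 4.48 CPM against 18.4 and 134 CPM, but the call against fibrocytes was lost without replicate 3, 4 or 5 (edgeR adjusted p = 0.0751, 0.0908 and 0.266) and without mixed droplets (0.182), where its level was 15.8 CPM. Of the retinoid list, Stra6, Rara and Rarres2 were higher and Dhrs3 lower than in fibrocytes among 12 tested (all genes 10.6% and 15.5%). Against fibroblasts none was higher and 1 was lower (all genes 1.48% and 1.52%), namely Aldh1a1, which makes retinoic acid, averaged 38.4 CPM in members against 548 CPM in fibroblasts (-3.30 ± 0.30, edgeR adjusted p = 6.21e-15).

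Ribosomal protein genes took 18.6%, 21.6%, 25.7% and 18.2% of the members' UMIs in replicates 1, 3, 4 and 5. Fibrocytes gave 8.46%, 12.4%, 10.5% and 9.23%, below every member value. Of 82 tested ribosomal genes, 46 were higher in the members than in fibrocytes and 8 than in fibroblasts, and none was lower in either (higher among all genes, 10.6% and 1.48%). Mitochondrial genes took 3.39% ± 1.60 of the members' UMIs against 7.85% ± 1.91 in fibrocytes. Whether members held more ribosomal transcripts or fewer others cannot be told apart from shares.

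Genes of macrophages and granulocytes entered these sums mostly through few droplets. The 8 macrophage genes summed to 54.9, 331, 148 and 172 CPM in the members, led by C1qa at 65.7 CPM, and none was at 0. Of their 1208 UMIs, 92.2% lay in 44 members that held at least 3 of the genes. The granulocyte list summed to 5109, 19.5, 1.01 and 6022 CPM, and 2 members, 1 in replicate 1 and 1 in replicate 5, held 99.0% of its 6265 UMIs.

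The mural cell list summed to 240, 259, 247 and 362 CPM, led by Abcc9, with Acta2 at 0. Of its 1314 UMIs, 38.7% lay in the 49 members with at least 3 of the genes, so most lay outside them. The endothelial list summed to 179, 107, 144 and 108 CPM, led by Flt1, with Esam and Tie1 at 0. Cdh5, also on this list, was at 0 because the rule requires it, so it adds nothing to the sum by construction. Both sums were above the rest of the kept cells, whose means were 69.2 CPM for the mural and 61.1 CPM for the endothelial list. Sums of these lists in fibrocytes and fibroblasts alone are not given. Flt1 had a UMI in 25.3% of members, 35.5% of fibroblasts and 5.87% of fibrocytes. Abcc9 was also among the top genes of the cluster led by Fst, Phex and Dmp1. Values of Otor, Ccnd2 and Bhlhe22 without members holding a UMI of Pecam1, Cldn5, Flt1 or Egfl7 are given above. Against fibrocytes, barring these genes cost 11 named genes their call, turned the sign of 3 and left 28 as they were. With the cells left out of all sums instead, 5 lost their call, 2 turned and 41 were as before. The 122 members left out as mixed droplets below include the 49 with at least 3 mural genes. Hair cell genes summed to 403 ± 32.8 CPM, almost wholly Myo6 at 401 CPM, with Pou4f3, Kncn and Gfi1 at 0. Supporting cell genes summed to 82.4, 22.1, 12.1 and 14.3 CPM, B lineage genes to 43.5 ± 39.9 CPM, T cell genes to 6.21 ± 11.1 CPM, melanocyte genes to 13.8 ± 19.4 CPM and marginal cell genes to 1.38 ± 2.09 CPM, all below the rest of the kept cells. Genes of other epithelia summed to 41.2, 312, 70.4 and 215 CPM, against 3166 CPM in the rest. The lists of stromal classes averaged 6151 CPM for fibrocytes, 655 for fibroblasts, 203 for Slc47a1 barrier-like cells and 200 for Dmp1 and Ogn stromal cells. Members with at least 3 genes of the fibrocyte list numbered 373 (39.4%), and those with at least 3 of the fibroblast list 65 (6.87%).

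Leaving out the 122 members with at least 3 genes of a class outside the stroma kept 824. Lyz2, Lcn2, Fabp5 and Fcer1g, which had passed as higher in the members, fell with them. Lyz2, lysozyme of macrophages, went from a mean of 151 to 18.5 CPM, Lcn2 from 109 to 4.01 CPM, Fabp5 from 92.0 to 26.1 CPM and Fcer1g from 65.8 to 9.57 CPM. Otor, at 2911 and 2955 CPM, Ccnd2, at 442 and 439 CPM, Fn1, at 375 and 417 CPM, and Lef1, at 206 and 232 CPM, moved by less than the spread between libraries.

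**Figure D5:**
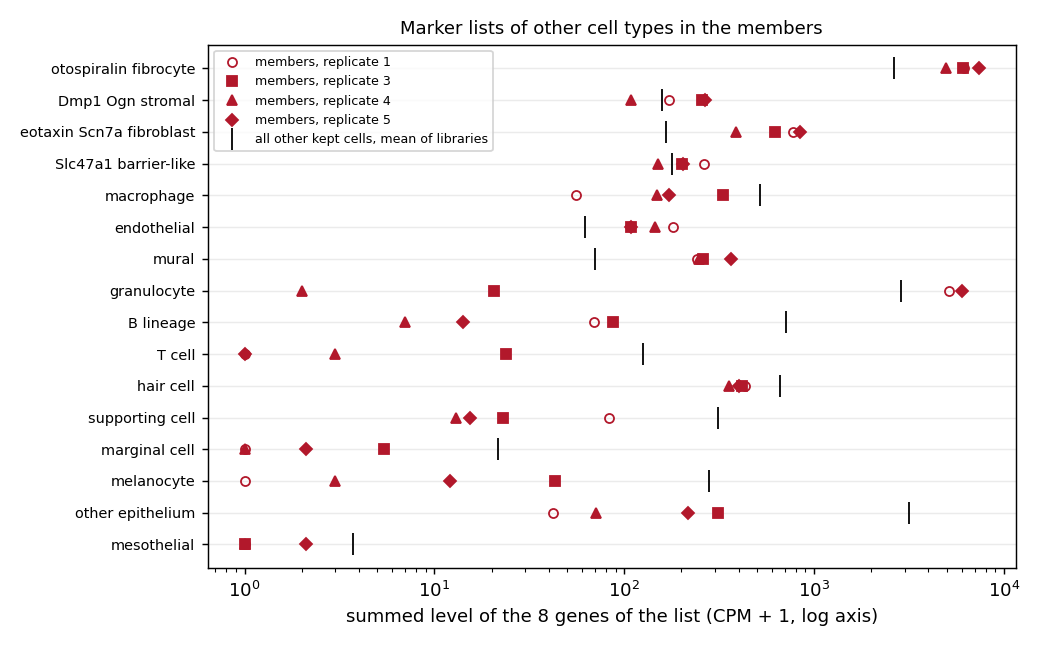
Summed level (log axis, CPM + 1) of 8 genes for each of several other cell types in the members, 1 point per library, beside the mean of the remaining kept cells. Granulocyte genes reach 5109 and 6022 CPM in replicates 1 and 5 and stay at or under 19.5 CPM in replicates 3 and 4, while the endothelial list stays between 107 and 179 CPM.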

How the data were processed

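The authors deposited raw UMI counts per gene and barcode, 1 matrix per library, made with the 10x Genomics Chromium 3′ v3.1 kit, sequenced on Illumina and aligned to mm10. The submitters' processing notes name Cell Ranger 6.1.2 and Seurat, whereas the file headers give Cell Ranger 5.0.1 for replicates 1 and 2. Barcodes had been filtered to called cells, and a doublet removal step is not given in the sources used here. No doublet caller was run here; members with at least 3 of 8 genes of another class were counted and left out as an alternative.

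Members and gene lists were chosen with earlier results of these data known. Every other kept cell went to the class of which it held most genes, at least 3 of 8. Each class of 5 cells or more in a library was summed, and edgeR 4.0.16 in R 4.3.3 tested the sums (TMM, filterByExpr, quasi-likelihood, library as a block, Benjamini-Hochberg at 0.05). On simulated counts for these sums the test recovered set changes, but how large they were and how often they were recovered is not given here. The same library supplies each pair of sums, and deviations of members and fibrocytes correlated within every library (r = 0.269, 0.166, 0.361 and 0.144), those of members and fibroblasts less (0.0648, 0.0696 and 0.0729). Across libraries, members of replicate 5 and fibrocytes of replicate 3 had r = 0.164, above the 0.144 within replicate 5. Members of replicate 4 and fibroblasts of replicate 3 had 0.0678. All other pairs across libraries lay between -0.193 and 0.0507. Named genes were up to 4 of each list with the largest difference from the class mean that passed without overlap, the most abundant of each list, and over all genes the 15 higher and 10 lower with the largest difference and at least 50 CPM, without ribosomal, mitochondrial and haemoglobin genes. Other genes given with values were picked from the lists, the most abundant genes or the clusters after their values were seen. Clusters came from scanpy 1.11.5 (2000 variable genes, 30 components, Leiden resolution 1). Alternatives were RLE factors, DESeq2 1.42.0, no filter, no block, leaving out each library, other limits on cells or rule genes, replicate 2 for replicate 1, and, chosen after seeing the data, leaving out mixed droplets, comparison cells with 2 or more rule genes, members with endothelial genes, or members with exactly 3 rule genes. The Dmp1 and Ogn stromal class (2, 23, 0 and 2 cells) was too small to test, and the Slc47a1 barrier-like class was not compared. Some list genes are not named, and 1 marker sum is not reported here. Gene positions follow the mm10 annotation, and promoter windows come from RefSeq for GRCm38.p6.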

Additional observations from a re-analysis of the deposited data

Results flagged for a closer look

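Of 88 values of named genes and marker sums in the members, 11 had a library that stood apart from the other 3, judged by the gap to its nearest neighbour divided by the whole range, against Dixon's 95% limit for 4 libraries. Chance alone marks about 1 in 20 such values. Replicate 1 was low for Bambi (0.879) and high for Fabp5 (0.906) and the summed supporting cell genes (0.857). Replicate 3 was high for Mgp (0.902), for the summed T cell genes (0.912), and for Rspo3 (1.0) and Slc4a10 (1.0), each of which rests on 1 UMI. Replicate 4 was high for Jund (0.914) and low for Gjb6 (0.978). Replicate 5 was high for the summed mural genes (0.844) and for the summed mesothelial genes (1.0), the latter from 1 UMI. Bambi without replicate 1 was higher in the members than in fibrocytes by 2.14 (edgeR adjusted p = 6.14e-05).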

How the results depend on the processing

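Changing the scaling to RLE factors (678, 1988 and 223 genes called against the class mean, fibrocytes and fibroblasts), using DESeq2 (565, 1600 and 233), replacing replicate 1 by replicate 2 (683, 1928 and 202) and leaving out mixed droplets (581, 1901 and 198) kept the counts within 1.5 times of 697, 1957 and 225. Libraries are paired by construction, and without the library block the counts were 311, 1361 and 102, the last split into 31 higher and 71 lower. Leaving out 1 library gave 262 to 505, 912 to 1926 and 67 to 219 genes. The lowest counts against the class mean and fibroblasts came without replicate 5 (262 and 67), and against fibrocytes without replicate 4 (912), while without replicate 5 it was 1186; without replicate 4 the other 2 were 287 and 136, and without replicate 1 they were 422 and 138. With no filter on low counts 350 genes were called against fibroblasts (235 higher and 115 lower), and 598 of 802 against the class mean were higher. The split against fibroblasts was 41 higher and 97 lower without replicate 1, 167 and 52 without replicate 3, and 20 and 47 without replicate 5; against the class mean it was 414 and 91 without replicate 3.

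Requiring 4 rule genes gave 612 members and 471 genes against fibroblasts, and 6 rule genes without Emcn and Tmem100 gave 556 members and 419 genes. In both, cells no longer members could join the comparison classes, and fibroblasts rose from 121 to 140 and 141 cells. Replicate 4 then had 5 fibroblasts and entered the sums. Leaving members with 3 rule genes out of all sums, so that none could join, gave 375 genes against fibroblasts. At least 2000 UMIs kept 511 members, and leaving out 1 library gave 352 to 903, the lowest without replicate 3. Requiring no UMI in Pecam1, Cldn5, Flt1 and Egfl7 gave 165 genes against the class mean and 537 against fibrocytes (164 higher and 373 lower), under which the 248 cells left out could join the comparison classes; with these cells left out of all sums the counts were 300, 1086 and 135. With at least 2000 UMIs, where fibroblasts were summed in 2 libraries, 262 genes were called against the class mean (189 higher and 73 lower) and 41 against fibroblasts (8 and 33). Without comparison cells holding 2 or more rule genes the counts were 655 (508 and 147), 2596 and 151 (96 and 55), also with 2 fibroblast libraries. Among named genes the sign turned in 43 values, none of them past the threshold, and 6 of these belonged to differences that had been called: Col11a2 against the class mean without replicate 3 (0.25, against -2.48 without replicate 1) and with stricter comparison cells (0.58), Gjb6 against the class mean with stricter comparison cells (0.4354), Cemip against fibroblasts at 2000 UMIs (0.0122), Fos against fibrocytes with no UMI in the 4 endothelial genes (-0.0775) and Rspo3 against fibroblasts without replicate 3 (0.26, against -6.15 without replicate 5). The other 37 were of differences not called. Against fibrocytes, Ctnnb1 turned with RLE factors (-0.0445), DESeq2 (-0.0527) and the endothelial genes barred (-0.32) or left out (-0.18), and Jund with the same 4 changes (-0.0161, -0.0131, -0.14 and -0.0022) and without mixed droplets (-0.0271). Leaving out 1 library gave -0.0706 to 0.28 for Ctnnb1 and -0.16 to 0.26 for Jund, and -0.0492 to 0.22 for Igfbp5 against the class mean, which was -0.23 at 2000 UMIs. Against fibroblasts, Apoe turned with no filter (0.1455), the endothelial genes barred (0.1541), no mixed droplets (0.12), 2000 UMIs (0.0244) and stricter comparison cells (0.0526), Syngr1 at 2000 UMIs (0.5737), Col11a2 and Scrg1 with stricter comparison cells (4.96 and 4.04), Gjb6 without members with 3 rule genes (-0.0187), and Gjb2, Ptgds and Syngr1 with the endothelial genes barred (0.60, 0.36 and 0.59) or left out (0.34, 0.0574 and 0.31). Leaving out 1 library there gave -0.23 to 0.0749 for Apoe, -1.61 to 4.37 for Col11a2, -0.58 to 0.44 for Gjb2, -0.22 to 5.66 for Gjb6, -0.80 to 0.0575 for Ptgds, -1.56 to 1.40 for Scrg1 and -0.55 to 0.17 for Syngr1. The cause was not tested. Over the named genes given here and alternatives, 74 of 958 values against the class mean, 48 of 958 against fibrocytes and 99 of 958 against fibroblasts kept their direction but were no longer past the threshold. Depth limits the rarest genes, since 1 UMI in the fibroblasts of replicate 1 is 147 CPM.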
